A study of Mus musculus with 8 samples.

Results

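The genes described here are 10 chemokines, the small secreted or membrane-bound proteins that guide moving cells. They are Ccl2, Ccl5, Ccl7, Ccl20, Cxcl1, Cxcl5, Cxcl10, Cxcl12, Cxcl16 and Cx3cl1. They were chosen by name, with earlier results of these data known. Each was read by the 1 probe set that the platform annotation gives to that symbol alone. They are 10 of 19938 genes compared. The data are 8 mouse expression arrays in 4 groups of 2: DA3 alone, DA3 co-culture, MBA-15 alone and MBA-15 co-culture. The stromal line, MBA-15, is pre-osteoblastic, DA3 is a line of mammary adenocarcinoma, and in co-culture DA3 cells were laid on a monolayer of MBA-15. Cells were sorted with magnetic particles against EpCAM, a surface protein of epithelial cells, into positive and negative cells. The MBA-15 co-culture arrays hold the negative cells and are called the MBA-15 fraction, and the DA3 co-culture arrays hold the positive cells and are called the DA3 fraction. No agent or genetic change is named for any group, all 8 sample descriptions name 24 h, and each line is a single line, so the groups stand for these 2 lines only. The labels do not state whether the 2 arrays of each group are separate cultures, so the p-values reflect only how far the samples at hand vary, possibly for technical reasons.

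Chemokines bind heparan sulphate on cells and matrix and signal through receptors with a seven-pass membrane fold. Those of the CC class attract mainly monocytes and lymphocytes, and many of the CXC class attract neutrophils or, like Cxcl10, activated T cells. Cxcl16 and Cx3cl1 differ from the rest in that they are made as membrane proteins with the chemokine domain on a stalk, from which proteases release it. Stromal cells of bone marrow are a known source of Cxcl12 and Ccl2, and breast carcinoma cells can make chemokines and carry their receptors.

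Stretches of 3 promoters are shown, because Ccl20, Cxcl1 and Cxcl10 had 3 different patterns over the groups and their promoters are among the 5 of 10 members found in the RefSeq promoter table (build GRCm38.p6). Each is the 250 bases before the annotated start, read 5′ to 3′ on the strand of the gene. Capitals mark matches, on either strand, to the kB motif of NF-kB (GGG, 5 bases of any kind, then CC), the AP-1 motif TGANTCA and the interferon-stimulated motif (GAAA, 2 bases of any kind, then GAAA). The Ccl20 stretch is chr1:83116516-83116765 on the plus strand, that of Cxcl1 is chr5:90890995-90891244 on the plus strand, and that of Cxcl10 is chr5:92348890-92349139 on the minus strand.
Ccl20: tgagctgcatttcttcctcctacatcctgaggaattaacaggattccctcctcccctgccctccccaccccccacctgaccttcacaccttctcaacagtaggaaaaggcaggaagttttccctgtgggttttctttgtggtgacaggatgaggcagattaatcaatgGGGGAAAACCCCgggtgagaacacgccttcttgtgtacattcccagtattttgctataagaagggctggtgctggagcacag
Cxcl1: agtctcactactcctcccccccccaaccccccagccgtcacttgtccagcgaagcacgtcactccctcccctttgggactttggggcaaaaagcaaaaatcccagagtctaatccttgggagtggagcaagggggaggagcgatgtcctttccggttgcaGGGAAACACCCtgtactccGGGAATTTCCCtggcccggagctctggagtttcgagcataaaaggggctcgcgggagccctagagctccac
Cxcl10: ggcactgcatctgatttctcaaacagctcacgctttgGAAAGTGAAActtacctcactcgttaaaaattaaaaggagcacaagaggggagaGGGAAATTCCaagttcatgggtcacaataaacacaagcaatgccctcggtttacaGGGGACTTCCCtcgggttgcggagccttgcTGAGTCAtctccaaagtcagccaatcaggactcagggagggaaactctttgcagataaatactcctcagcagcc
The capitals in Ccl20 are 1 stretch of overlapping kB matches, and those in Cxcl1 are 2 such stretches. Cxcl10 had 2 kB stretches, 1 AP-1 match and 1 interferon-stimulated match. Of 32851 promoters of this length in the table, 45.8% held a kB match, 6.75% an AP-1 match and 2.98% an interferon-stimulated match, so the kB letters alone are common. Cxcl12 had 1 kB match and Cx3cl1 held none of the 3 motifs. These are matches of letters and were not set against any binding data.

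Before the members, the labels were checked. Epcam, the gene of the sorted antigen, had log2 levels of 5.58 and 5.19 in the MBA-15 fraction, 8.45 and 9.25 in the group labelled MBA-15 alone, 9.57 and 9.46 in DA3 alone and 9.30 and 9.38 in the DA3 fraction. It thus went against the label MBA-15 alone, and the descriptions of both those arrays and of the DA3 alone arrays carry the word mix. The mean level of 29 epithelial markers was 4.64 and 4.62 in the MBA-15 fraction, 6.75 and 7.25 in the group labelled MBA-15 alone, 7.92 and 7.84 in DA3 alone and 7.51 and 7.77 in the DA3 fraction. The mean of 27 stromal markers was 7.58 and 7.32, 7.06 and 7.05, 4.86 and 4.91, and 5.67 and 5.34 in the same order. That list includes Eif2s3y, named as a check of the labels rather than as a gene of stroma. Eif2s3y was at 7.22 and 7.15, 6.70 and 6.16, 3.73 and 3.76, and 4.21 and 4.12 in the same order. It is among the stromal markers of the linear scale below too. Of 17 leukocyte markers 15, of 10 endothelial markers 8 and of the 27 stromal markers 7 had no group mean over the lowest array median of 4.479. Of the 27 stromal markers 25 had a higher mean in the MBA-15 fraction than in DA3 alone, but Twist1 (6.42 against 6.60) did not. In RNA of whole fractions, fewer cells of a kind and less RNA per cell cannot be told apart. For the source of each chemokine the least mixed groups by these markers were used, MBA-15 co-culture and DA3 alone.

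**Figure D1:**
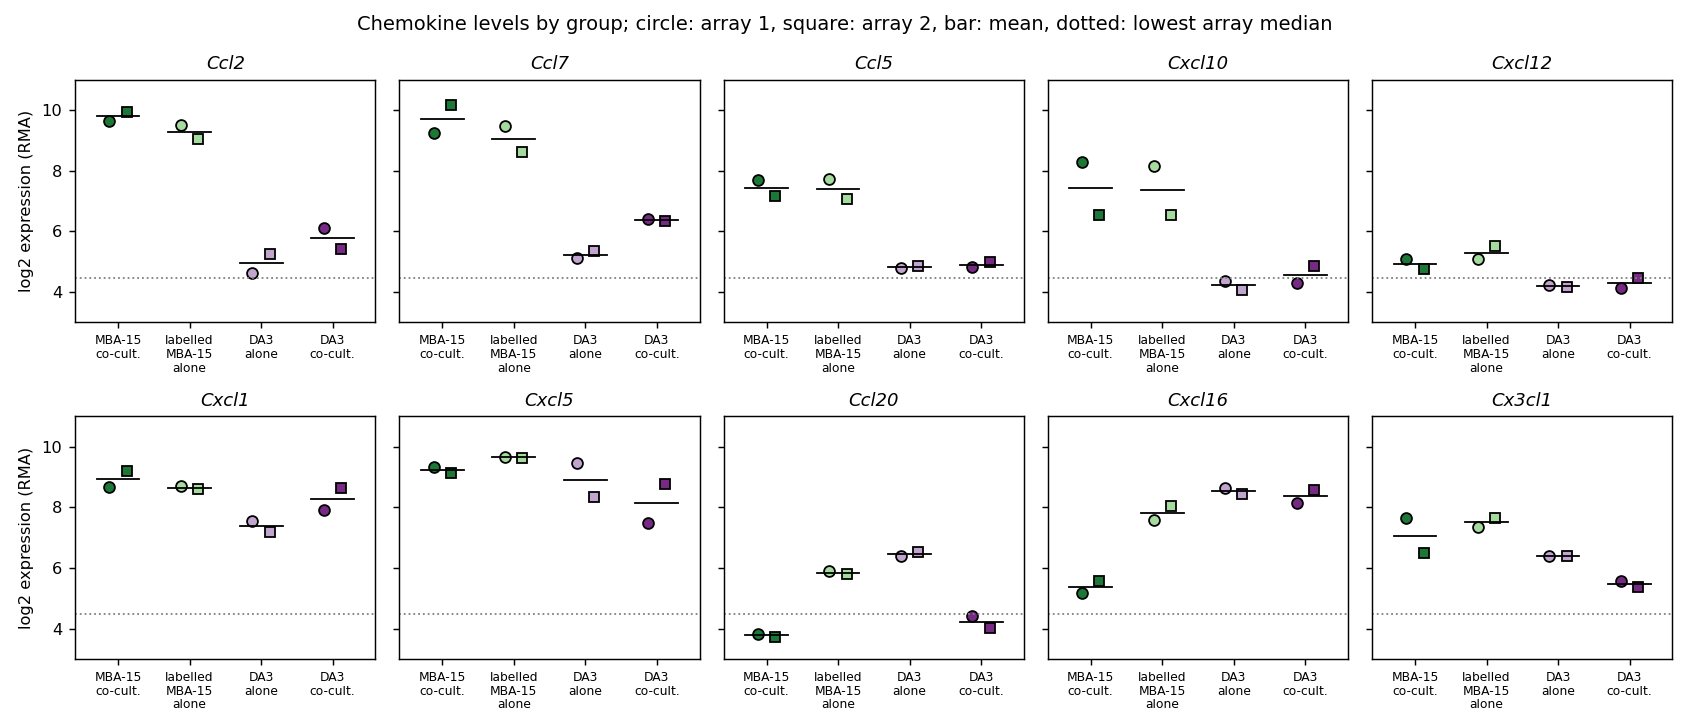
Log2 expression of the 10 chemokines (y axis) on each array of the 4 groups (x axis), with circles for array 1, squares for array 2, bars for group means and a dotted line at the lowest array median, 4.479. Ccl2, Ccl7, Ccl5 and Cxcl10 lie high on all 4 arrays labelled MBA-15, Cxcl16 lies low only in the MBA-15 fraction, and Ccl20 lies high only in DA3 alone and in the group labelled MBA-15 alone.

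The first question was which line each chemokine came from. Ccl2, Ccl7, Ccl5, Cxcl10 and Cxcl1 were higher in the MBA-15 fraction than in DA3 alone, Ccl20 and Cxcl16 were lower, and Cxcl5, Cxcl12 and Cx3cl1 did not pass the test. That is 7 of 10 members at an adjusted p under 0.05 (limma with Benjamini-Hochberg adjustment over all genes), 5 higher and 2 lower, where 12.6% of all genes passed, 6.08% higher and 6.47% lower. The arrays of 7 members were higher and those of 2 lower without overlap, where 27.2% and 26.6% of all genes were. The median difference of the members was 1.15 log2 units, against 0.0044 over all genes. These groups differ in culture type as well as in line. Each member had a group mean over the lowest array median. The shares of all genes, here and below, also count genes under that median in every group, so they are not a matched base. The members were also chosen with earlier results of these data known, so their counts beside these shares are only a description.

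The monocyte attractants had the largest differences between the lines. Ccl2, a main ligand of the receptor Ccr2, was at 9.65 and 9.93 in the MBA-15 fraction, 9.50 and 9.05 in the group labelled MBA-15 alone, 4.64 and 5.26 in DA3 alone and 6.13 and 5.42 in the DA3 fraction. All 4 arrays labelled MBA-15 thus stood far above all 4 of DA3. The MBA-15 fraction exceeded DA3 alone by 4.84 ± 0.32 log2 units (SE, 28.5-fold, limma adjusted p = 0.00033). Ccl7, which shares that receptor, had levels of 9.24 and 10.17, 9.46 and 8.63, 5.13 and 5.34, and 6.40 and 6.35 in the same order of groups. Its difference was 4.47 ± 0.37 (22.2-fold, limma adjusted p = 0.000701), and again no MBA-15 array overlapped a DA3 array. Ccl2 and Ccl7 are direct neighbours among the protein-coding genes of the GRCm38.p6 annotation, followed by Ccl11, Ccl12, Ccl8 and Ccl1. Of these neighbours Ccl8, another CC ligand, was at 8.63 and 8.53 in the MBA-15 fraction and at a mean of 4.31 in DA3 alone (4.27 ± 0.51, limma adjusted p = 0.0029), at best a lower bound, since the DA3 alone mean lay under the lowest array median. Ccl11, Ccl12 and Ccl1 had no group mean over the lowest array median.

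Ccl5, a ligand for T cells and monocytes, was at 7.69 and 7.17 in the MBA-15 fraction, 7.72 and 7.07 in the group labelled MBA-15 alone, 4.79 and 4.87 in DA3 alone and 4.83 and 4.99 in the DA3 fraction. Its difference between the MBA-15 fraction and DA3 alone was 2.60 ± 0.26 (6.06-fold, limma adjusted p = 0.00145). Its neighbour Ccl9, a CC ligand of mouse, was also higher in the MBA-15 fraction (2.40 ± 0.29, limma adjusted p = 0.00289), again at best a lower bound for the same reason. Next to Ccl9 lie Ccl6, Ccl3 and Ccl4. Ccl6 had a mean of 4.39 in the MBA-15 fraction and 5.19 in DA3 alone, lower without overlap, and did not pass (-0.80 ± 0.21, limma adjusted p = 0.0544). Ccl4 was at 0.36 ± 0.19 in the same comparison and did not pass, and Ccl3 had no group mean over the lowest array median.

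Cxcl10, the interferon-inducible ligand of Cxcr3, was at 8.29 and 6.56 in the MBA-15 fraction, 8.17 and 6.53 in the group labelled MBA-15 alone, 4.36 and 4.08 in DA3 alone and 4.28 and 4.86 in the DA3 fraction. Array 1 was higher than array 2 in both MBA-15 groups, and the groups themselves hardly differed. The descriptions put both arrays 1 of MBA-15 in assay 4 and both arrays 2 in assay 3, numbers that the sources used here do not explain. The difference between the MBA-15 fraction and DA3 alone was 3.20 ± 0.69 (9.21-fold, limma adjusted p = 0.0277), 2.48 within assay 3 and 3.93 within assay 4. The level in DA3 alone lay under the lowest array median, so this difference is at best a lower bound. Without MBA-15 co-culture array 1 the difference was 2.34 and missed the threshold (limma adjusted p = 0.0857), and without DA3 alone array 1 or 2 the adjusted p was 0.129 and 0.153.

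Cxcl12, the ligand of Cxcr4 that holds blood stem cells in the marrow, was low on this probe set. It was at 5.10 and 4.77 in the MBA-15 fraction, 5.07 and 5.51 in the group labelled MBA-15 alone, 4.24 and 4.17 in DA3 alone and 4.12 and 4.45 in the DA3 fraction. Every array labelled MBA-15 was above every DA3 array, but the difference of the MBA-15 fraction from DA3 alone was 0.73 ± 0.21 and did not pass (limma adjusted p = 0.0712). It passed with intensity trend and robust moderation (limma adjusted p = 0.0357). Both DA3 means lay under the lowest array median, so each of these differences is at best a lower bound.

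The neutrophil attractants were measured well above the array median in both lines. Cxcl1, a ligand of Cxcr2, was at 8.67 and 9.20 in the MBA-15 fraction, 8.69 and 8.59 in the group labelled MBA-15 alone, 7.55 and 7.20 in DA3 alone and 7.92 and 8.65 in the DA3 fraction. The MBA-15 fraction exceeded DA3 alone by 1.56 ± 0.29 (2.95-fold, limma adjusted p = 0.0158), 2.00 within assay 3 and 1.12 within assay 4. Without DA3 alone array 1 or 2, or without MBA-15 co-culture array 2, the adjusted p was 0.0668, 0.113 and 0.0779. Cxcl5, another ligand of Cxcr2, was at 9.32 and 9.14, 9.67 and 9.64, 9.45 and 8.35, and 7.49 and 8.79 in the same order of groups. Its MBA-15 arrays lay close together and its DA3 arrays far apart, and its difference of 0.33 ± 0.48 did not pass (95% interval from -0.83 to 1.49).

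Cxcl16 and Ccl20 were the 2 members lower in the MBA-15 fraction than in DA3 alone. Cxcl16, the ligand of Cxcr6, was at 5.17 and 5.56 in the MBA-15 fraction, 7.60 and 8.05 in the group labelled MBA-15 alone, 8.64 and 8.43 in DA3 alone and 8.16 and 8.58 in the DA3 fraction. The MBA-15 fraction was lower than DA3 alone by a difference of -3.17 ± 0.24 (8.99-fold, limma adjusted p = 0.000505). Ccl20, the ligand of Ccr6, was at 3.84 and 3.72, 5.90 and 5.79, 6.40 and 6.53, and 4.42 and 4.02 in the same order. Its difference was -2.68 ± 0.16 (6.41-fold, limma adjusted p = 0.000297), at best a lower bound, since the level in the MBA-15 fraction lay under the lowest array median. With culture type matched by label, between the fractions and between the arrays labelled alone, Ccl20 did not pass. It was high in both groups labelled alone and low in both co-culture groups.

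Cx3cl1, the membrane-bound ligand of Cx3cr1, was at 7.65 and 6.48 in the MBA-15 fraction, 7.37 and 7.66 in the group labelled MBA-15 alone, 6.41 and 6.39 in DA3 alone and 5.56 and 5.38 in the DA3 fraction. The DA3 arrays of each group agreed closely, and MBA-15 co-culture array 2 lay near the DA3 alone arrays. The difference of the MBA-15 fraction from DA3 alone was 0.67 ± 0.35 and did not pass (limma adjusted p = 0.332), with 0.09 within assay 3 and 1.24 within assay 4. Without MBA-15 co-culture array 2 it was 1.25 and passed (limma adjusted p = 0.0158).

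The fractions of the co-culture itself, the MBA-15 fraction against the DA3 fraction, gave the levels of cells that had been grown together. Ccl2 (4.01 ± 0.32), Ccl7 (3.33 ± 0.37), Ccl5 (2.53 ± 0.26), Cxcl10 (2.85 ± 0.69) and Cx3cl1 (1.60 ± 0.35) were higher in the MBA-15 fraction, and Cxcl16 (-3.01 ± 0.24) was lower. These 6 of 10 members passed, where 12.8% of all genes did, 8.28% higher and 4.48% lower (limma, adjusted p = 0.000854, 0.00268, 0.00203, 0.0427, 0.0316 and 0.000852 in that order). Without overlap 8 members were higher and 2 lower, where 23.3% and 31.9% of all genes were. Within assay 3, the only one with both fractions, the differences were 3.80, 3.77, 2.34, 2.27, 0.92 and -2.60. Ccl20 was at -0.44 ± 0.16 (limma adjusted p = 0.142), with both fractions under the lowest array median. Cxcl1 stood at 0.65 ± 0.29, Cxcl5 at 1.09 ± 0.48 and Cxcl12 at 0.64 ± 0.21, and these did not pass. This comparison shares the MBA-15 co-culture arrays with the one above. Cx3cl1 missed the threshold with the assay number as a block (limma adjusted p = 0.157), with only these groups in the fit (0.13), without either array labelled MBA-15 alone (0.0557 each time), without either DA3 alone array (0.0697 each time) and without DA3 co-culture array 1 or 2 (0.0742 and 0.106). Cxcl10 missed it without MBA-15 co-culture array 1 (1.98, limma adjusted p = 0.133), without DA3 co-culture array 1 or 2 (0.131 and 0.0869), without either DA3 alone array (0.0855 each time), after quantile normalization (0.0525) and with only these groups in the fit (0.0901).

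**Figure D2:**
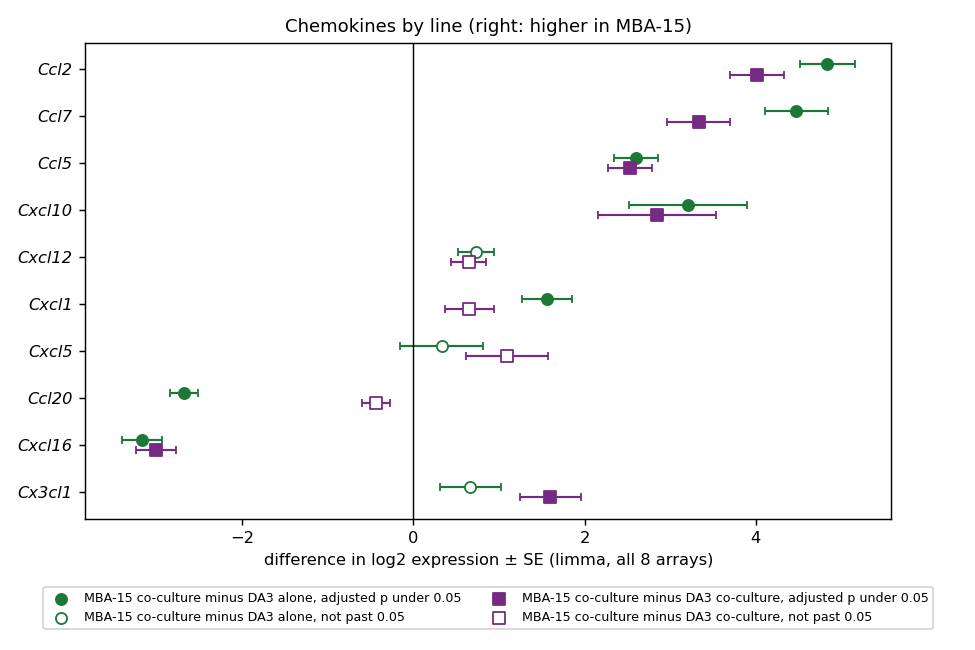
Difference in log2 expression between the MBA-15 fraction and DA3 alone (circles) or DA3 co-culture (squares) on the x axis for each chemokine on the y axis, with standard errors from limma and filled symbols for an adjusted p under 0.05. Ccl2 and Ccl7 lie farthest to the right (4.84 and 4.47 against DA3 alone), Cxcl16 lies left in both comparisons, and Ccl20 lies left against DA3 alone (-2.68) and near 0 against the DA3 fraction (-0.44).

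Between the arrays labelled alone, 4 of 10 members passed, all higher in MBA-15, where 2.89% of all genes passed, 2.7% higher and 0.186% lower. They were Ccl2 (4.32 ± 0.32, limma adjusted p = 0.00142), Ccl7 (3.81 ± 0.37, 0.0037), Ccl5 (2.56 ± 0.26, 0.00421) and Cxcl12 (1.09 ± 0.21, 0.0493). Without overlap 8 members were higher and 2 lower, where 18.4% and 29.5% of all genes were. The Cxcl12 call was lost in most of the other settings tried, as with the replicate number as a block (limma adjusted p = 0.0813). Without DA3 alone array 1 only Ccl2 still passed among the members, and without DA3 alone array 2 only 2 of them. Cxcl16 (-0.71 ± 0.24) and Ccl20 (-0.62 ± 0.16) did not pass here, beside the epithelial markers found in the group labelled MBA-15 alone. Cxcl10 (3.13 ± 0.69), Cxcl1 (1.27 ± 0.29), Cx3cl1 (1.11 ± 0.35) and Cxcl5 (0.75 ± 0.48) did not pass either. Cxcl10 did pass with the assay number as a block (limma adjusted p = 0.0226), with intensity trend and robust moderation (0.01), with only genes over the lowest array median in a group (0.0242) and without either MBA-15 co-culture array (0.0459 each time). Cx3cl1 passed without either of those arrays (0.0208 each time) and with only these groups in the fit (0.0244), as Cxcl1 did (0.0223).

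The second question was how chemokine levels of the carcinoma line differed after co-culture. In DA3, Ccl20 fell by 2.24 on the log2 scale (SE 0.16, 4.73-fold, limma adjusted p = 0.0331), from 6.46 ± 0.09 alone to 4.22 ± 0.28 in co-culture (SD, n = 2 arrays each). Both co-culture arrays lay under the lowest array median, so the fall is at best a lower bound. It was the 1 member of 10 that passed, where 0.0401% of all genes passed, 0.01% higher and 0.0301% lower. At an unadjusted p under 0.05 there were 5 members, Ccl20, Ccl2, Ccl7, Cxcl1 and Cx3cl1, and 2973 of all genes (14.9%). The change was -2.11 within assay 3, the only assay with both groups. Its size stayed between -2.44 and -2.03 over the settings tried, but the call was often lost. With the replicate number as a block the adjusted p in limma was 0.0519, with the assay number as a block 0.087, and in a fit without the group labelled MBA-15 alone 0.0801. It was lost as well without any 1 array other than DA3 co-culture array 1, with adjusted p from 0.0672 without DA3 co-culture array 2 to 0.343 without DA3 alone array 2. Epcam differed by -0.18 ± 0.27 between the same groups (limma adjusted p = 0.744). On a linear scale from the MBA-15 fraction (0%) to DA3 alone (100%), Ccl20 stood at 10.2% and 3.32% on the DA3 co-culture arrays. The 26 epithelial markers over 1 log2 unit higher in DA3 alone stood at medians of 80.0% and 90.2%, and all 26 were above Ccl20 on each array. For Ccl20 the 0% end, a mean of 3.78, also lay under the lowest array median, so its positions near that end are not resolved. Epcam is the antigen by which the DA3 fraction was sorted, so its level there follows the sort too. The part of cell mix and sorting in the Ccl20 difference was not tested.

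Cxcl16 was the other member higher in DA3 alone than in the MBA-15 fraction. It differed by -0.16 ± 0.24 between the DA3 fraction and DA3 alone (95% interval from -0.73 to 0.40). The groups overlapped, and the interval leaves out a change as large as that of Ccl20. On the linear scale it stood at 74.0% and 103.5% on the DA3 co-culture arrays, within the range of the epithelial markers.

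Of the members higher in stroma, Ccl7 was at 6.40 and 6.35 in the DA3 fraction against 5.13 and 5.34 alone, Ccl2 at 6.13 and 5.42 against 4.64 and 5.26, and Cxcl1 at 7.92 and 8.65 against 7.55 and 7.20. The arrays of these 3 genes did not overlap between the groups, where 31.4% of all genes were higher without overlap. The differences were 1.14 ± 0.37, 0.82 ± 0.32 and 0.91 ± 0.29 and did not pass (limma adjusted p = 0.265, 0.312 and 0.262). Stromal markers were measured on the DA3 co-culture arrays too. On a linear scale from DA3 alone (0%) to the MBA-15 fraction (100%), the 17 stromal markers over 1 log2 unit higher in the MBA-15 fraction stood at medians of 7.30% and 4.18%. Ccl2 stood at 4.46% and 1.30% and Ccl7 at 5.55% and 5.20% on arrays 1 and 2, within the range of the markers. Cxcl1 stood at 22.6% and 70.8%, above 15 of the 17 markers on array 1 and above all 17 on array 2, where the highest marker was at 6.96%. The ends of the scale lay 1.56 log2 units apart for Cxcl1, less than for most markers, so the same log2 spread spans more percent. Ppbp, with ends 1.64 apart, stood at -28.2% and 69.1%, and the marker Col5a1, with ends 1.01 apart, at 28.1% and -2.57%. The part of stromal RNA in the values of Ccl2 and Ccl7 was not tested. Ccl5 (0.07 ± 0.26), Cxcl10 (0.36 ± 0.69) and Cxcl12 (0.09 ± 0.21) overlapped between the groups.

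Cx3cl1 was lower on both DA3 co-culture arrays (5.56 and 5.38) than on both DA3 alone arrays (6.41 and 6.39), as were 22.4% of all genes. The difference of -0.93 ± 0.35 did not pass (limma adjusted p = 0.308) and was -0.83 within assay 3. Cxcl5 differed by -0.76 ± 0.48 with overlapping arrays (limma adjusted p = 0.474). The median change of the 10 members was 0.08, against 0.04 over all genes.

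The third comparison set the MBA-15 fraction beside the arrays labelled MBA-15 alone. Ccl20 (-2.06 ± 0.16, 4.17-fold, limma adjusted p = 0.00713) and Cxcl16 (-2.46 ± 0.24, 5.50-fold, limma adjusted p = 0.00923) were lower in the MBA-15 fraction, and the other 8 members did not pass. The Ccl20 value is at best a lower bound, and both directions rest on a group whose Epcam level went against its label. Of all genes 0.848% passed, 0.0752% higher and 0.772% lower. Without overlap 1 member was higher and 3 were lower, where 22.3% and 16.1% of all genes were. The differences were -2.07 and -2.05 for Ccl20, and -2.49 and -2.42 for Cxcl16, within assay 3 and assay 4. Without MBA-15 co-culture array 2 neither passed (limma adjusted p = 0.0735 for both), and without array 2 labelled MBA-15 alone Cxcl16 did not (0.0694). Both genes were high in DA3 alone, and 19 of the 29 epithelial markers were lower in this comparison as well, Epcam by -3.46 ± 0.27 log2 units.

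On the linear scale from the MBA-15 fraction to DA3 alone, Cxcl16 stood at 46.1% and 67.8% on arrays 1 and 2 labelled MBA-15 alone, and Ccl20 at 61.5% and 55.7%. The 26 epithelial markers had medians of 35.7% and 58.0% there. Cxcl16 thus lay within the range of the markers on both arrays, below 5 and 4 of the 26. Ccl20 lay above all 26 on array 1, where the highest marker was at 56.8%, and below 14 of them on array 2. The part of DA3 RNA in these 2 differences was not tested.

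**Figure D3:**
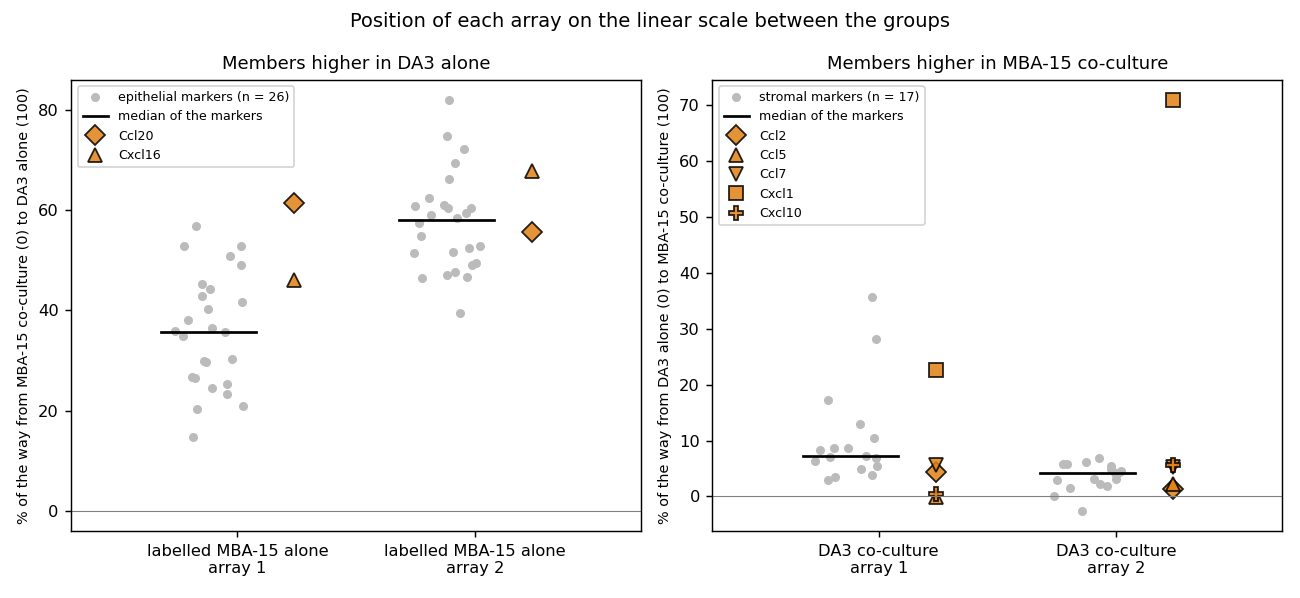
Position of chemokines (orange) and marker genes (grey, median as a bar) on a linear expression scale in percent (y axis), for each array (x axis). In the left panel Cxcl16 (46.1% and 67.8%) and Ccl20 (61.5% and 55.7%) stand above the median of 26 epithelial markers on array 1 labelled MBA-15 alone and on either side of it on array 2, and in the right panel Cxcl1 (22.6% and 70.8%) stands above most stromal markers on the DA3 co-culture arrays while Ccl2 and Ccl7 stand among them. For Cxcl1 the ends of the scale lie 1.56 log2 units apart, less than for most markers.

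The members higher in the MBA-15 fraction than in DA3 alone did not pass in this comparison, and neither did Cxcl12. Ccl2 differed by 0.51 ± 0.32, Ccl7 by 0.66 ± 0.37, Ccl5 by 0.04 ± 0.26, Cxcl10 by 0.07 ± 0.69, Cxcl1 by 0.30 ± 0.29 and Cxcl12 by -0.36 ± 0.21 (limma adjusted p from 0.663 to 0.987). The 95% interval ran from -0.58 to 0.65 for Ccl5 and from -1.58 to 1.72 for Cxcl10. Within assay 3 and assay 4 the difference was 0.88 and 0.15 for Ccl2, 1.55 and -0.22 for Ccl7, -0.74 and 0.02 for Cxcl12 and -1.18 and 0.28 for Cx3cl1. These 4 genes thus differed more within assay 3 than within assay 4, and so did Cxcl1, Cxcl5 and Ccl5, but not Cxcl10. Cx3cl1 (-0.45 ± 0.35) and Cxcl5 (-0.42 ± 0.48) did not pass. The median change of the members was -0.16, against 0.04 over all genes. All these values rest on the group labelled MBA-15 alone, whose Epcam level went against its label. On the linear scale from DA3 alone to the MBA-15 fraction, the 17 stromal markers had medians of 61.3% and 68.7% on its arrays. Ccl2 stood at 80.7% and 58.1%, Ccl7 at 79.4% and 42.5% and Cxcl1 at 74.2% and 65.9%. Ccl5 was at 123.8% and 72.1% and Cxcl10 at 146.3% and 40.0%. The part of DA3 RNA in these differences was not tested.

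**Figure D4:**
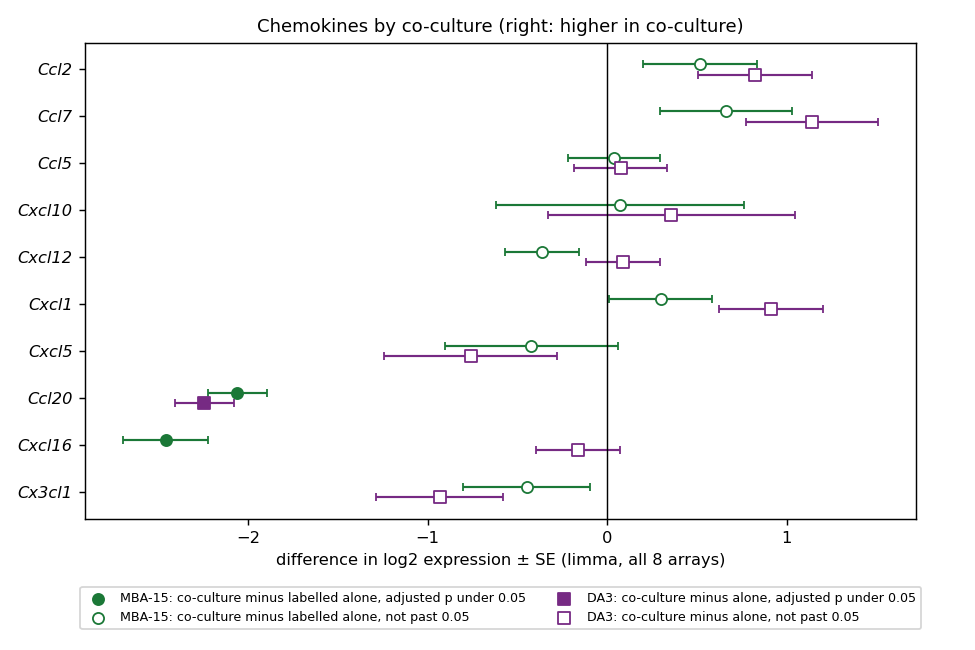
Difference in log2 expression between co-culture and the culture labelled alone (x axis) in MBA-15 (circles) and DA3 (squares) for each chemokine (y axis), with standard errors from limma and filled symbols for an adjusted p under 0.05. Ccl20 lies near -2 in both comparisons (-2.06 for MBA-15 and -2.24 for DA3). Cxcl16 lies at -2.46 in MBA-15 and -0.16 in DA3, and the other 8 chemokines have open symbols in both. The MBA-15 values rest on the group labelled MBA-15 alone, whose Epcam level went against its label.

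The difference of the changes between the lines was tested as an interaction. It passed for 0 of 10 members, where 0.0602% of all genes passed (limma), and 1 member, Cxcl16, had an unadjusted p under 0.05, as did 1260 of all genes (6.32%). For Cxcl16 the change in MBA-15 minus that in DA3 was -2.30 ± 0.33 (unadjusted p = 0.000307, limma adjusted p = 0.127), and Epcam was at -3.28 ± 0.38 in the same test (limma adjusted p = 0.0767). For Ccl20 it was 0.18 ± 0.23 (95% interval from -0.37 to 0.74). Each of these values rests on the group labelled MBA-15 alone, whose Epcam level went against its label.

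Of the receptors, 23 of 24 listed were measured, and 18 had no group mean over the lowest array median, among them Ccr2, Ccr6, Cxcr2, Cxcr4 and Cxcr6, which bind members described above. Cxcr3, the receptor of Cxcl10, was at 3.75 and 3.64 in the MBA-15 fraction, 3.76 and 3.71 in the group labelled MBA-15 alone, 3.77 and 3.56 in DA3 alone and 5.52 and 6.46 in the DA3 fraction. Both DA3 co-culture arrays stood above the other 6, which lay under the lowest array median. The DA3 fraction exceeded the MBA-15 fraction (difference of MBA-15 from DA3 -2.29 ± 0.29, limma adjusted p = 0.00453). Against DA3 alone the difference was 2.33 ± 0.29 and did not pass (limma adjusted p = 0.0796). Both are at best lower bounds. Ackr3, a scavenging receptor of Cxcl12, was at 5.30 and 5.29 in the MBA-15 fraction against 4.69 and 4.56 in DA3 alone and was higher there (0.67 ± 0.16, limma adjusted p = 0.039). In the group labelled MBA-15 alone Ackr3 stood at 4.97 and 4.59. It stood at 5.10 and 5.21 in the DA3 fraction, which did not pass against DA3 alone (0.53 ± 0.16, limma adjusted p = 0.25). Its co-culture arrays of both lines thus lay above all arrays labelled alone. In all, 0 of 23 receptors passed in the co-culture comparison of either line (limma), with 1 in MBA-15 and 3 in DA3 at an unadjusted p under 0.05. Of all genes 1954 (9.8%) and 2973 (14.9%) reached that p in MBA-15 and DA3, the shares to set beside each such count. At the adjusted threshold 0.848% and 0.0401% of all genes passed in MBA-15 and DA3. Those shares go with the adjusted co-culture counts here and below.

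**Figure D5:**
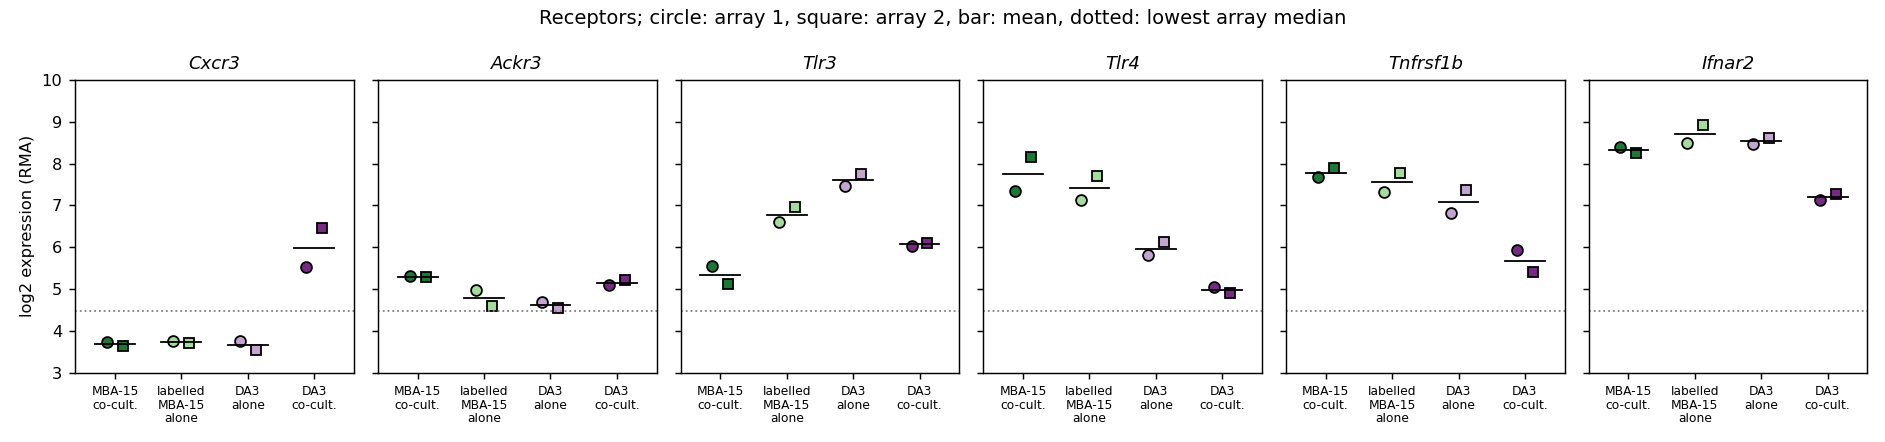
Log2 expression (y axis) of 2 chemokine receptors and 4 receptors of inducing signals on each array of the 4 groups (x axis), with circles for array 1, squares for array 2, bars for group means and a dotted line at the lowest array median, 4.479. Cxcr3 is above that line in the DA3 fraction alone (5.52 and 6.46), and Tlr4, Tnfrsf1b and Ifnar2 are lowest in the DA3 fraction.

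Of 18 measured genes of inducing signals and their receptors, Tlr3, a sensor of double-stranded RNA, was the 1 that passed in a co-culture comparison. It was lower in the MBA-15 fraction than in the group labelled MBA-15 alone (-1.44 ± 0.21, limma adjusted p = 0.0378), at 5.56 and 5.12 against 6.62 and 6.95. Like Ccl20 and Cxcl16 it was higher in DA3 alone, at 7.46 and 7.76. In DA3 its value of -1.54 ± 0.21 did not pass, nor did the interferon receptor gene Ifnar2 (-1.34 ± 0.18) and the TNF receptor gene Tnfrsf1b (-1.42 ± 0.27), with limma adjusted p of 0.0869, 0.0844 and 0.146. Between the fractions of the co-culture 7 of the 18 were higher in MBA-15 and 0 lower, where 8.28% and 4.48% of all genes were: Tlr4 (2.77 ± 0.31), Tnfrsf1b (2.12 ± 0.27), Ifngr2 (1.42), Tlr2 (1.16), Ifnar2 (1.13), Ifnar1 (1.07) and Ifngr1 (1.06). Tlr4, the sensor of bacterial lipopolysaccharide, was also higher in the MBA-15 fraction than in DA3 alone (1.78 ± 0.31, limma adjusted p = 0.0122), and Tlr3 was lower (-2.27 ± 0.21). In that comparison 1 of the 18 was thus higher and 1 lower, where 6.08% and 6.47% of all genes were. The other 16 did not pass there, among them Tnfrsf1b, Ifngr2, Tlr2, Ifnar2, Ifnar1 and Ifngr1. The count between the fractions therefore depends on which DA3 group is compared.

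Of 12 processing proteases, Mmp2, a gelatinase, was higher in the MBA-15 fraction than in DA3 alone by 3.96 ± 0.16 (limma adjusted p = 0.000161) and Mmp3 by 2.21 ± 0.53 (limma adjusted p = 0.0402), the latter at best a lower bound, since Mmp3 lay under the lowest array median in DA3 alone. Adam10 and Adam17, which release Cx3cl1 and Cxcl16 from the membrane, were lower on both DA3 co-culture arrays than on both DA3 alone arrays, as were 22.4% of all genes, and their values of -0.79 ± 0.24 and -0.62 ± 0.18 did not pass (limma adjusted p = 0.252 and 0.244). Of the 12 proteases 3 were lower and 6 higher without overlap in DA3, where 22.4% and 31.4% of all genes were. In all, 0 of 12 passed in the co-culture comparison of either line (limma), with 0 in MBA-15 and 4 in DA3 at an unadjusted p under 0.05. Of 26 other chemokine ligands measured, 16 had no group mean over the lowest array median. Of the 26, 2 passed between the MBA-15 fraction and DA3 alone, Ccl8 and Ccl9, both higher, where 6.08% of all genes were higher and 6.47% lower. That count is near the share of all genes and is only a description. In either co-culture comparison 0 passed (limma), with 0 in MBA-15 and 1 in DA3 at an unadjusted p under 0.05.

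The genes whose centred profile over the 8 arrays lay nearest to a member, by Euclidean distance, are given as a description, since points within a group share their line and culture. For Cxcl10 they were the interferon response genes Irf7 (distance 0.63 log2 units, r = 0.995) and Ddx60 (0.86, r = 0.982) and, between them, Tgfbi (0.79, r = 0.987). Irf7 showed the same split as Cxcl10, at 8.48 and 8.04 on the MBA-15 arrays of assay 4 and 6.61 and 6.67 on those of assay 3. For Ccl2 they were Trim30a, Emb and Tmem45a (0.79, 0.91 and 0.91), for Ccl7 Casp1, Layn and Tmem45a (0.59, 0.65 and 0.66) and for Ccl5 Tcn2, Tnfrsf9 and Ndrg2 (0.42, 0.47 and 0.55). For Ccl20 they were Atp6v0e2, Klhl30 and Lypd6b (0.88, 0.94 and 0.97), each high in DA3 alone and low in both co-culture groups. Lypd6b, for one, was at 6.84 and 7.39 in DA3 alone, 4.74 and 5.11 in the DA3 fraction and 3.99 and 4.08 in the MBA-15 fraction. For Cxcl16 they were Gca, Eif4a3 and Galnt3 (0.36, 0.50 and 0.52), and for Cx3cl1 Phc3, Rbpms and Tap2, a transporter of antigen peptides (0.60, 0.72 and 0.72). For Cxcl1 they were Ddit3, Ghr and Tubb2b (0.61, 0.66 and 0.66), for Cxcl5 Cenph, Lurap1l and Sar1b (0.83, 0.86 and 0.89) and for Cxcl12 Amigo2, Ifitm1 and Nudt16 (0.41, 0.44 and 0.50).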

How the data were processed

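The authors deposited log2 expression of each probe set on Affymetrix MoGene ST arrays. RMA and Partek 6.5 are named in the submitters' processing notes, and their parameters are not. RMA normalizes between arrays, so each change is measured against the bulk of genes. The scale was read from the range of the values and from the RMA named. Array medians lay between 4.479 and 4.642, and the number of arrays limits the precision. The sources used here name no build.

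Of 35556 probe sets, 21789 had 1 gene symbol in the platform annotation, 1621 several and 12146 were not listed there. The probe set with the highest mean was kept per gene, giving 19938 genes, and dim genes were kept. Each of the 10 members had 1 probe set. A model of 4 group means (limma 3.58.1 under R 4.3.3, functions lmFit and eBayes, 4 residual and 2.6 prior degrees of freedom) was fitted to the 8 arrays. Two-sided p-values were adjusted by the Benjamini-Hochberg method across the 19938 genes, with a threshold of 0.05. Exact permutation of 2 arrays against 2 cannot go below p = 0.333 and was not used. On data simulated for the change in MBA-15 over 19938 genes, 19 of 50 genes with a planted change of 1 log2 unit and 45 of 50 with 2 were called. Among the genes without a planted change 7 were called. The simulated arrays were independent, had no assay effect and took their spread from the fitted model. These counts thus check the fit and do not measure how many changes would be found in these data.

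Groups and replicate numbers came from the sample titles. The replicate numbers were not taken as pairs. All 10 members were named. Of the other lists, genes that passed or had the 3 largest changes were eligible, and those not needed for a result were left out. The nearest 3 profiles were named for members whose group means ranged over 1 log2 unit. Adam10, Adam17 and the receptors below the lowest array median were named for their known ligands after their values were seen, as were the neighbours of members. The members and lists were chosen with earlier results of these data known. Alternatives are given in the closing section.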

Additional observations from a re-analysis of the deposited data

How the results depend on the processing

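The count of members called was within 1.5 times the main one, under every alternative tried, for both source-line comparisons that use MBA-15 co-culture, and it stayed at 0 for the difference of the changes. The calls in MBA-15 (2) became 1 with only the groups compared in the fit, and the call in DA3 (1) became 0 there, with the replicate number as a block, with the assay number as a block, and, chosen after the data were examined, without the group labelled MBA-15 alone. With any 1 array left out the members called numbered 0 to 2 for MBA-15, 0 to 1 for DA3, 5 to 7 for the MBA-15 fraction against DA3 alone, 4 to 6 for the fractions, 1 to 5 for the arrays labelled alone and 0 for the difference. The replicate block ended the DA3 call of Ccl20 (adjusted p = 0.0519) and the call of Cxcl12 between the arrays labelled alone (0.0813) and changed no other call of a member. Same-numbered arrays did not deviate together in every pair of groups: the correlation over genes ran from -0.413 to 0.311. In the 3 pairs of groups whose numbers also match assays 4 and 3 it was 0.010, 0.213 and 0.135, while DA3 co-culture arrays 1 and 2 are of assays 3 and 5, so the other pairs do not bear on sharing by assay.

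Changes of direction fell on values that did not pass. Centred arrays gave Ccl5 in DA3 -0.048 and its difference of changes 0.049, and quantile normalization gave the latter 0.077. Cxcl12 in DA3 was -0.084 with the assay block, -0.056 after quantile normalization and -0.035 with centred arrays, and the Ccl20 difference of changes was -0.032 with the assay block. With 1 array left out the change ran, in MBA-15, from -0.286 to 0.361 for Ccl5, -0.795 to 0.935 for Cxcl10 and -1.03 to 0.138 for Cx3cl1. In DA3 it ran from -0.0049 to 0.154 for Ccl5, -0.077 to 0.251 for Cxcl12 and -0.374 to 0.049 for Cxcl16, and for Cxcl5 between the MBA-15 fraction and DA3 alone from -0.221 to 0.884. The difference of changes ran from -0.661 to 0.048 for Ccl2, -0.36 to 0.286 for Ccl5, -0.015 to 0.38 for Ccl20, -0.308 to 0.986 for Cxcl5, -1.15 to 0.578 for Cxcl10 and -0.099 to 1.07 for Cx3cl1. The causes were not tested. Over all genes the count called ran from 13 to 334 for MBA-15 (169 as reported), 0 to 134 for DA3 (8), 995 to 3011 for the MBA-15 fraction against DA3 alone (2503), 1123 to 2984 for the fractions (2545), 136 to 779 for the arrays labelled alone (576) and 0 to 44 for the difference (12). Signals under the lowest array median limit Ccl20, Cxcl10 and Cxcl12, and also Ccl6, Ccl8, Ccl9, Mmp3 and Cxcr3.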

Other observations

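Ppbp, a platelet-type CXC ligand that lies beside Cxcl5 in the annotation, varied widely between arrays of a group. It was at 7.82 and 9.30 in the MBA-15 fraction, 8.45 and 8.99 in the group labelled MBA-15 alone, 7.76 and 6.08 in DA3 alone and 5.96 and 8.41 in the DA3 fraction. Its differences did not pass in any of the 6 comparisons, and its standard error for a difference of 2 groups was 0.93. Cxcl5 showed the same order of arrays within DA3, at 9.45 and 8.35 alone and 7.49 and 8.79 in co-culture. Both genes were lower on the assay 3 array of each DA3 group.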
